A study of Mus musculus with 12 samples.

Results

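The genes described here are serglycin, the core protein of the mast cell granule proteoglycan, and the enzymes that build and sulfate its heparin and chondroitin sulfate chains. They were chosen by name as 10 genes: Srgn, Ndst1, Ndst2, Ext1, Ext2, Glce, Hs2st1, Hs6st1, Hs3st1 and Chst11. Of these, 9 were measured by a single probe set each, of 19938 genes in all. Ndst1 was not analysed here. The 12 arrays carry RNA of bone marrow derived mast cells, grown from the marrow of female mice aged 4 to 6 weeks with stem cell factor at 12.5 ng/ml and interleukin 3 at 10 ng/ml. The 4 groups of 3 arrays are ACKR2-/- cells after 10 weeks of culture, wild type C57BL/6 cells after 10 weeks, ACKR2-/- cells after 2 weeks and wild type C57BL/6 cells after 2 weeks. ACKR2 is an atypical chemokine receptor that takes up inflammatory CC chemokines without the usual signalling. The labels write the mutant as ACKR2-/-, D6-/- or D6KO, D6 being an earlier name of the receptor, and name no allele. Arrays of 1 group are labelled as biological replicates, tied to no named animal or culture, so p-values measure the spread between these arrays. The sample descriptions give 4 weeks as the time after which cultures were homogeneous, and the 2-week groups lie before it. Some 2-week cultures were enriched for CD117, the product of Kit, and the labels do not say which. All levels are log2 signals after robust multi-array averaging (RMA) by the authors, so that equal steps are equal ratios.

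Serglycin carries many glycosaminoglycan chains, and their negative charge holds proteases, histamine and serotonin in the secretory granule. A chain starts on a short linker of sugars that is shared by heparin and chondroitin sulfate. EXT1 and EXT2 then extend the heparin backbone, NDST enzymes remove acetyl groups and add N-sulfate, GLCE turns glucuronic into iduronic acid, and O-sulfotransferases add sulfate at several positions. On the chondroitin branch, CHST11 places sulfate on N-acetylgalactosamine. In mice, loss of NDST2 removes heparin from connective tissue mast cells and empties their granules of several proteases, and loss of serglycin disturbs granule storage more widely. Mast cells cultured from marrow with interleukin 3 are known to carry mostly chondroitin sulfate.

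Promoter sequences were read for 8 of the 9 measured genes from RefSeq promoters of mouse GRCm38.p6, where Ext1 was not listed. Each window is the 250 bases before an annotated start, 5′ to 3′ on the gene's strand. The 4 windows are shown because they belong to the core protein and to the 2 enzymes whose levels spread most over the arrays. Srgn has a pair of annotated starts on the minus strand, with windows at chr10:62527446-62527695 and chr10:62507758-62508007. Ndst2 is on the minus strand (chr14:20734563-20734812) and Chst11 on the plus strand (chr10:82985247-82985496). Capitals mark GGGCGG (the GC box) or TATAAA on either strand.
Srgn, start at the higher coordinate: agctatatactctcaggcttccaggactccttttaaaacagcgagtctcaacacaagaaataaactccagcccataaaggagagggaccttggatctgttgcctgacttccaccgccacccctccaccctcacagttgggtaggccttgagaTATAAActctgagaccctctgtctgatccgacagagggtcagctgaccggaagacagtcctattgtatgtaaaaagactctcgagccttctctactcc
Srgn, start at the lower coordinate: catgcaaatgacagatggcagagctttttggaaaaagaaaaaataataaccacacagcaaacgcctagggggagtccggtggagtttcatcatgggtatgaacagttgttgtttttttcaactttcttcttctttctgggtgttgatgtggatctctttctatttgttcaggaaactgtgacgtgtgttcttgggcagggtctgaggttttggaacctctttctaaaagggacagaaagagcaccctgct
Ndst2: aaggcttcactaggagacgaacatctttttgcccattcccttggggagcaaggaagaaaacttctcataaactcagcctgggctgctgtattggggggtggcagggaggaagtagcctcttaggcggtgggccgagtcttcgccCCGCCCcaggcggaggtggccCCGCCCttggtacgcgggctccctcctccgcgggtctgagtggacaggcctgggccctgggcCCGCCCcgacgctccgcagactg
Chst11: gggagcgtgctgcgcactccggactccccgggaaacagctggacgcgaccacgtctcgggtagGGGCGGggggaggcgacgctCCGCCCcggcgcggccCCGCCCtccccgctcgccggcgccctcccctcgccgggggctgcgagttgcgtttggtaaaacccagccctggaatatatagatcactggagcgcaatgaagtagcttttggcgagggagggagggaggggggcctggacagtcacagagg
Motifs searched on both strands were the GATA motif GATAA, the E-boxes CATGTG and then CACGTG, the TATA box TATAAA and the GC box GGGCGG. No motif is contained in another. They were picked with the sequences in view, and a match is a description of letters only. The GC box stood in 3 copies in the windows of Ndst2, Chst11 and Glce, in 6 in that of Hs6st1 and in 1 in that of Hs2st1. Of the 32851 windows compared, which leave out 1 chromosome, 32.7% held it. Neither Srgn window had it, and the one at the higher coordinate held TATAAA, found in 12.4% of windows. Ext2 had 1 GATAA (22.6% of windows) and 1 CACGTG (6.02%), and none of these motifs was in the Hs3st1 window. Guanine and cytosine made up 42.8% and 49.6% of the Srgn windows, 54.8% of the Ext2 window and between 64.4% and 76.4% of the other 6, against a median of 52.4% over the windows compared.

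Mast cell transcripts were missing or low on 4 of the 12 arrays: all 3 labelled ACKR2-/- at 2 weeks and array 3 labelled wild type at 2 weeks. The mean log2 signal of 10 mast cell markers was 6.69 to 6.90 on these 4 and 12.60 to 13.05 on the other 8. Kit, the receptor for stem cell factor, read 7.51 to 9.18 against 13.61 to 13.90. In contrast, 7 B cell markers averaged 9.88 to 12.82 on the 4 arrays and 6.30 to 6.83 on the 8, and 7 T and NK cell markers 8.66 to 10.96 and 6.52 to 7.0. Xist, transcribed from the inactive X of female cells, read 5.77 to 6.23 on the 4 arrays and 13.00 to 13.37 on the 8, although the labels give female mice. ACKR2-/- arrays 1 and 2 and wild type array 3 at 2 weeks were closer to each other, at root mean square differences of 0.142 to 0.174 over genes, than any other pair of arrays was. The next pair, ACKR2-/- arrays 2 and 3 at 10 weeks, differed by 0.228, and no 2 arrays were identical. Ackr2, the targeted gene, was not lower under its mutant labels: it read 7.79 to 9.43 on the 6 arrays labelled ACKR2-/- and 7.88 to 8.38 on the 6 labelled wild type, and whether its probe set lies in the deleted part is not given in the sources used here. Groups are therefore named as labelled, the 4 are called the arrays low in mast cell markers, and every comparison with the 2-week groups rests on them. In bulk samples, fewer cells of a type and less RNA per cell cannot be told apart.

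**Figure D1:**
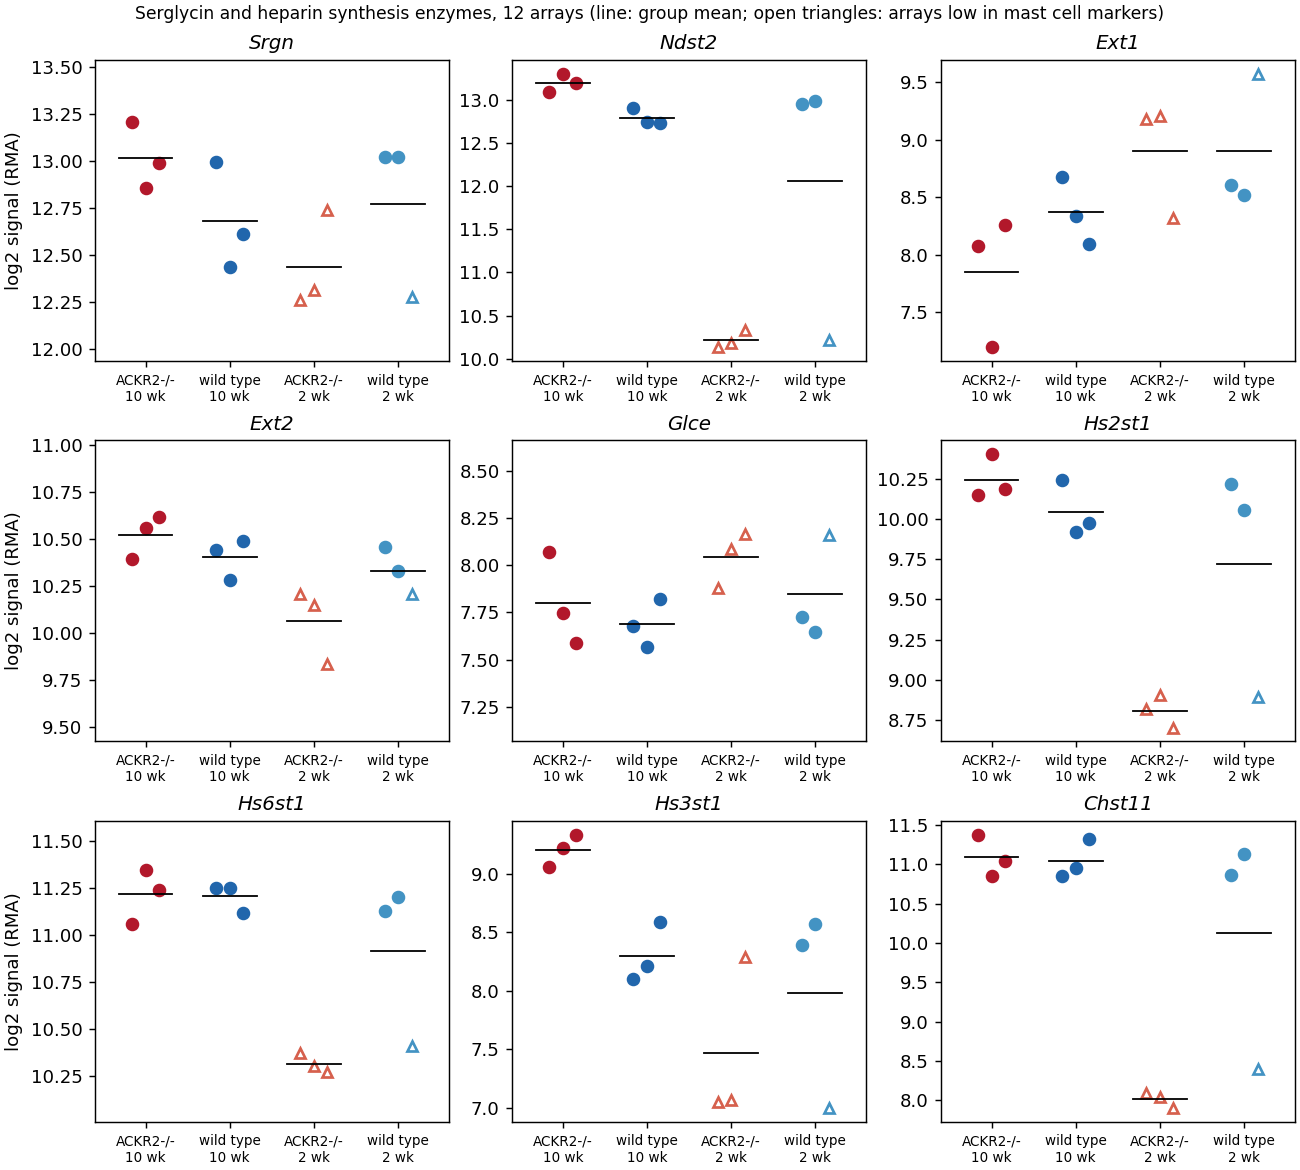
Log2 signal (RMA) of the 9 measured genes on each of the 12 arrays, in columns of 3 arrays for ACKR2-/- at 10 weeks, wild type at 10 weeks, ACKR2-/- at 2 weeks and wild type at 2 weeks, with a line at each group mean and open triangles for the 4 arrays low in mast cell markers. Ndst2, Ext2, Hs2st1, Hs6st1 and Chst11 are lower on those 4 arrays than on every other array, while Srgn stays between 12.26 and 13.21 on all 12.

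The core protein spanned a narrower range of log2 signal than 6 of the 8 enzymes. At 10 weeks Srgn read 13.21, 12.86 and 12.99 on the ACKR2-/- arrays, against 12.99, 12.44 and 12.61 on the wild type arrays. At 2 weeks Srgn read 12.26, 12.31 and 12.74 on the ACKR2-/- arrays, against 13.02, 13.02 and 12.28 on the wild type arrays. Its whole range was 0.95, wider than that of 64.3% of all genes. The 4 arrays low in mast cell markers (12.26 to 12.74, median 12.30) overlapped the other 8 (12.44 to 13.21, median 12.99).

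EXT1 and EXT2 form the complex that lengthens the heparan backbone. At 10 weeks Ext1 read 8.08, 7.20 and 8.26 on the ACKR2-/- arrays, against 8.68, 8.34 and 8.09 on the wild type arrays. At 2 weeks Ext1 read 9.19, 9.21 and 8.32 on the ACKR2-/- arrays, against 8.60, 8.52 and 9.57 on the wild type arrays. ACKR2-/- array 2 at 10 weeks was the lowest of the 12, and wild type array 3 at 2 weeks the highest. At 10 weeks Ext2 read 10.39, 10.56 and 10.61 on the ACKR2-/- arrays, against 10.44, 10.28 and 10.49 on the wild type arrays. At 2 weeks Ext2 read 10.21, 10.14 and 9.83 on the ACKR2-/- arrays, against 10.45, 10.33 and 10.21 on the wild type arrays. Ext2 stayed within 0.78 over all arrays, and the 4 arrays low in mast cell markers were its lowest.

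NDST2 starts the modification of the chain by N-deacetylation and N-sulfation, and GLCE is the epimerase that follows it. At 10 weeks Ndst2 read 13.08, 13.30 and 13.19 on the ACKR2-/- arrays, against 12.90, 12.74 and 12.72 on the wild type arrays. At 2 weeks Ndst2 read 10.13, 10.18 and 10.33 on the ACKR2-/- arrays, against 12.95, 12.99 and 10.22 on the wild type arrays. The 4 arrays low in mast cell markers lay at 10.13 to 10.33 and the other 8 at 12.72 to 13.30, with nothing between. At 10 weeks Glce read 8.07, 7.75 and 7.59 on the ACKR2-/- arrays, against 7.68, 7.56 and 7.82 on the wild type arrays. At 2 weeks Glce read 7.88, 8.09 and 8.16 on the ACKR2-/- arrays, against 7.73, 7.65 and 8.16 on the wild type arrays. Glce had the narrowest range of the 9, 0.60, and its groups overlapped in every comparison.

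The O-sulfotransferases act after the epimerase. HS2ST1 sulfates the uronic acid. At 10 weeks Hs2st1 read 10.15, 10.40 and 10.18 on the ACKR2-/- arrays, against 10.24, 9.92 and 9.97 on the wild type arrays. At 2 weeks Hs2st1 read 8.82, 8.91 and 8.70 on the ACKR2-/- arrays, against 10.21, 10.06 and 8.89 on the wild type arrays. The arrays low in mast cell markers (8.70 to 8.91) were separate from the rest (9.92 to 10.40). HS6ST1 sulfates the glucosamine. At 10 weeks Hs6st1 read 11.06, 11.34 and 11.24 on the ACKR2-/- arrays, against 11.25, 11.25 and 11.11 on the wild type arrays. At 2 weeks Hs6st1 read 10.37, 10.30 and 10.27 on the ACKR2-/- arrays, against 11.13, 11.20 and 10.41 on the wild type arrays. It showed the same split, 10.27 to 10.41 on the 4 arrays and 11.06 to 11.34 on the other 8.

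HS3ST1 adds the rare sulfate that completes the antithrombin binding site of heparin. At 10 weeks Hs3st1 read 9.06, 9.22 and 9.33 on the ACKR2-/- arrays, against 8.10, 8.21 and 8.59 on the wild type arrays. At 2 weeks Hs3st1 read 7.05, 7.06 and 8.29 on the ACKR2-/- arrays, against 8.39, 8.57 and 6.995 on the wild type arrays. The 3 ACKR2-/- arrays at 10 weeks were the highest of the 12. ACKR2-/- array 3 at 2 weeks, at 8.29, stood with the wild type arrays at 10 weeks, and the other 3 arrays low in mast cell markers lay at 6.995 to 7.06. CHST11 is the sulfotransferase of the chondroitin branch. At 10 weeks Chst11 read 11.38, 10.86 and 11.05 on the ACKR2-/- arrays, against 10.86, 10.95 and 11.33 on the wild type arrays. At 2 weeks Chst11 read 8.10, 8.04 and 7.90 on the ACKR2-/- arrays, against 10.87, 11.13 and 8.40 on the wild type arrays. Its range of 3.48 was the widest of the 9, with 7.90 to 8.40 on the arrays low in mast cell markers and 10.86 to 11.38 on the other 8.

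The question at 10 weeks, where all 6 arrays carried mast cell transcripts, is whether cells labelled ACKR2-/- differ in this machinery. The ACKR2-/- group was not uniform. Over all genes, its array 1 was closer to the wild type arrays at 10 weeks (root mean square differences of 0.302 to 0.429) than to ACKR2-/- arrays 2 and 3 (0.462 and 0.451). None of the 9 genes passed the test in ACKR2-/- cells against wild type cells, and 0% of all genes did (limma, Benjamini-Hochberg adjusted p under 0.05, 3 arrays a group). At an unadjusted p under 0.05 there were 0 of the 9, against 7.85% of all genes. Hs3st1 had the lowest p: its difference was 0.90 ± 0.42 (SE), with an adjusted p of 0.636 and a 95% interval from -0.03 to 1.84. It was higher on 3 of 3 ACKR2-/- arrays than on any wild type array, as was Ndst2, whose difference was 0.40 ± 0.58 (adjusted p 0.96). These were 2 of 9 genes whose arrays did not overlap, both with higher ACKR2-/- arrays; 8.61% of all genes separated in that direction, 5.98% in the other and 14.6% in all.

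The standard errors take in the spread of all 4 groups. In a fit without the 4 arrays low in mast cell markers the standard error of Hs3st1 was 0.15 and its adjusted p 0.236, and that of Ndst2 was 0.11 with an adjusted p of 0.246. With only the 6 arrays at 10 weeks, the adjusted p-values were 0.38 for Hs3st1 and 0.397 for Ndst2. Hs3st1 passed the threshold (difference 0.98, limma adjusted p 0.0439) when ACKR2-/- array 1 was also left out, in a fit added after seeing the data, in which 506 genes passed. Over all alternatives its adjusted p ran from 0.0439 to 1.00.

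**Figure D2:**
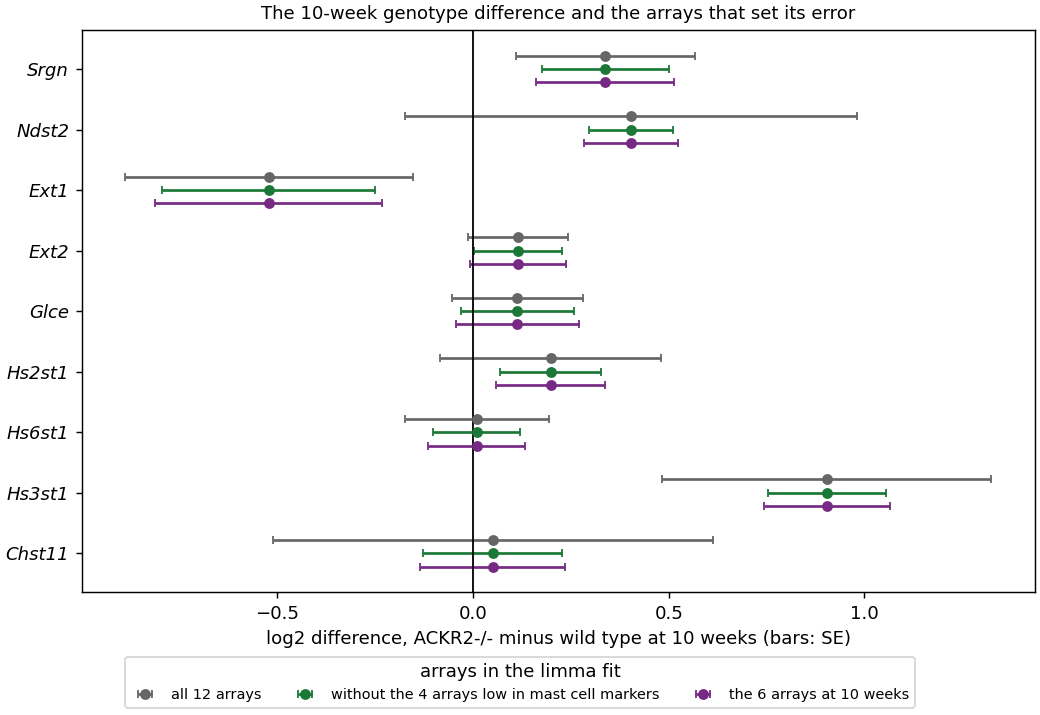
Log2 difference between ACKR2-/- and wild type cells at 10 weeks for each of the 9 genes, with bars of 1 SE, from limma fits on all 12 arrays (grey), without the 4 arrays low in mast cell markers (green) and on the 6 arrays at 10 weeks (purple). The differences are equal in the 3 fits, and the bars of Ndst2, Hs3st1 and Chst11 shorten most without the 4 arrays.

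Srgn differed by 0.34 ± 0.23 (adjusted p 0.802) and Ext1 by -0.52 ± 0.37 (0.809), each with overlapping arrays. Differences of the other 5 lay between 0.01 (Hs6st1) and 0.20 (Hs2st1), with adjusted p-values from 0.927 to 0.999. The intervals were narrowest for Ext2, from -0.17 to 0.40, and widest for Ndst2, from -0.88 to 1.68 in the fit on 12 arrays. No marker of other cells passed the test between the genotypes at 10 weeks, while the means of the neutrophil and basophil lists were lower on every ACKR2-/- array than on any wild type array. The 8 monocyte and macrophage markers averaged 9.70, 7.30 and 7.12 on the ACKR2-/- arrays and 9.39, 10.84 and 9.99 on the wild type arrays. Means of 9 neutrophil markers were 7.48, 6.76 and 6.61 on the ACKR2-/- arrays and 9.27, 10.64 and 7.92 on the wild type arrays, and those of 5 basophil markers 11.67, 9.81 and 9.79, against 12.10, 12.12 and 11.85. Of these 5, Fcer1a and Cd200r3 are also among the mast cell markers. Without overlap 2 of the 5, Mcpt8 and Prss34, were lower on the ACKR2-/- arrays and 1, Fcer1a, was higher. The 10 mast cell markers averaged 12.60 to 13.05 in ACKR2-/- and 12.79 to 12.93 in wild type cells. Of these 10, 6 were higher on every ACKR2-/- array than on any wild type array and 0 lower, beside 8.61% and 5.98% of all genes. Their differences ran from -1.45 to 0.38, with a median of 0.17. The part of other cells in the values of the 9 genes was not tested.

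At 2 weeks none of the 9 genes passed the test between the arrays labelled ACKR2-/- and those labelled wild type, and 0% of all genes did; at an unadjusted p under 0.05 there were 4 of the 9 (Ndst2, Hs2st1, Hs6st1 and Chst11), against 17.5% of all genes. Chst11 differed by -2.12 ± 0.56 (SE) and Ndst2 by -1.84 ± 0.58. Hs2st1 differed by -0.91 ± 0.28 and Hs6st1 by -0.60 ± 0.18, all 4 with a limma adjusted p of 0.225. ACKR2-/- arrays were below every wild type array for Hs6st1 and Chst11, 2 of the 9 genes; 8.6% of all genes separated in that direction, 4.97% in the other and 13.6% in all. Srgn differed by -0.34 ± 0.23 (adjusted p 0.494) and Hs3st1 by -0.52 ± 0.42 (0.583). Without wild type array 3, which is low in mast cell markers, 5 genes were lower on the ACKR2-/- arrays with a limma adjusted p of at most 0.0484, among 4738 genes that passed. Their differences were then -2.99 ± 0.18 for Chst11, -2.75 ± 0.11 for Ndst2, -1.33 ± 0.14 for Hs2st1, -1.01 ± 0.33 for Hs3st1 and -0.85 ± 0.11 for Hs6st1. That fit sets 3 arrays low in mast cell markers against 2 that are not, so genotype and this property cannot be told apart. Over all alternatives the adjusted p ran from 1.57e-06 to 0.783 for Chst11 and from 0.000187 to 0.962 for Hs3st1.

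On the arrays labelled ACKR2-/-, 5 of the 6 chain-modifying enzymes and 1 polymerase were higher at 10 than at 2 weeks. Here and below, rose and fell mean higher and lower at 10 weeks than on the 2-week arrays. They do not mean a course followed in the same cells. Of the 9 genes, 6 passed as higher at 10 weeks (66.7%) and 0 as lower, beside 10.5% of all genes higher and 6.33% lower, 16.8% in all (limma adjusted p under 0.05, 3 arrays a group). Chst11 rose 8.48-fold, by 3.08 ± 0.56 (SE) on the log2 scale (adjusted p 0.0137), and Ndst2 7.86-fold, by 2.97 ± 0.58 (0.0137). Among the O-sulfotransferases of heparin, Hs3st1 rose by 1.74 ± 0.42 (0.0209), Hs2st1 by 1.43 ± 0.28 (0.014) and Hs6st1 by 0.90 ± 0.18 (0.0141). Ext2 rose by 0.46 ± 0.13 (0.0331), a 1.37-fold change. Srgn, with 0.58 ± 0.23 (0.114), did not pass although its arrays did not overlap, and neither did Ext1, with -1.06 ± 0.37 (0.0755), whose 10-week arrays were all lower. Glce, with -0.24 ± 0.17 (0.39), overlapped. Without overlap there were 7 genes higher and 1 lower at 10 weeks, beside 26.7% and 17.7% of all genes (44.5% in all). At an unadjusted p under 0.05 there were 8 of the 9, beside 30.2% of all genes.

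All 3 arrays of the 2-week side are low in mast cell markers and in Xist, and carry lymphocyte transcripts. The week and these properties cannot be told apart, and the comparison cannot be made without these arrays. The list means of mast cell markers were 12.60 to 13.05 at 10 weeks and 6.69 to 6.90 at 2 weeks. Those of B cell markers were 6.51 to 6.71 at 10 weeks and 10.02 to 12.82 at 2 weeks, and those of monocyte and macrophage markers 7.12 to 9.70 and 10.96 to 11.04. The part of these cells in the values was not tested. The number of calls rested on single arrays: without ACKR2-/- array 2 or array 3 at 10 weeks, 0 of the 9 and 0 of all genes passed, with adjusted p-values of 0.0555 and 0.0584 for Ndst2. Leaving out ACKR2-/- array 1 or array 2 at 2 weeks left 4 calls, without Ext2 and Hs3st1, among 1514 and 1391 of all genes (7.59% and 6.98%). Leaving out ACKR2-/- array 3 at 2 weeks lost Ext2 (limma adjusted p 0.0935) and added Ext1 as lower (0.0458). Ext2 also missed the threshold after quantile normalization (0.0772). Directions held for all 9 genes in every fit that left out 1 array, and the Ndst2 difference stayed between 2.92 and 3.03, with an adjusted p from 1.38e-08 to 0.0584 over all alternatives. Without wild type array 3 at 2 weeks, which only enters the error, 8 passed, the added ones being Srgn as higher and Ext1 as lower. The calls over all genes then rose to 4994 (25%).

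**Figure D3:**
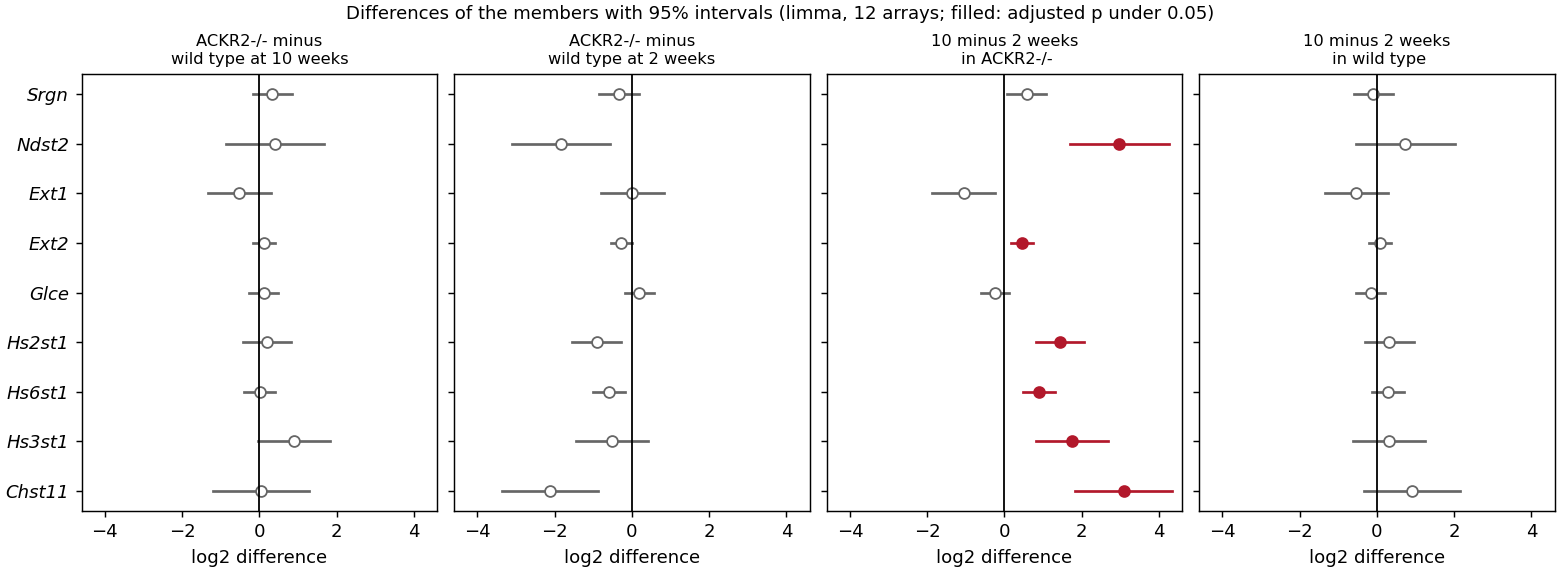
Log2 differences of the 9 genes with 95% intervals from the limma fit on 12 arrays, in panels for ACKR2-/- minus wild type at 10 weeks, ACKR2-/- minus wild type at 2 weeks, 10 minus 2 weeks in ACKR2-/- and 10 minus 2 weeks in wild type, filled where the adjusted p is under 0.05. Only the panel of 10 minus 2 weeks in ACKR2-/- holds filled points, 6 of them, all above 0.

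In the arrays labelled wild type, 0 of the 9 genes passed between 10 and 2 weeks and 0% of all genes did; at an unadjusted p under 0.05 there were 0 of the 9, against 6.65% of all genes. None of the 9 separated the weeks, while 8.74% of all genes did (5.29% higher and 3.45% lower at 10 weeks). The fitted differences were 0.91 ± 0.56 (SE) for Chst11, 0.74 ± 0.58 for Ndst2 and -0.53 ± 0.37 for Ext1, with limma adjusted p-values of 0.784, 0.79 and 0.784. These rest on wild type array 3 at 2 weeks. Without the arrays low in mast cell markers, 3 arrays at 10 weeks against 2 at 2 weeks, the differences were 0.05 ± 0.20 for Chst11, -0.18 ± 0.12 for Ndst2, -0.09 ± 0.14 for Hs2st1 and 0.04 ± 0.12 for Hs6st1. Hs3st1 was then -0.18 ± 0.17, Srgn -0.34 ± 0.18 and Ext1 -0.19 ± 0.30, with adjusted p-values for the 9 genes from 0.798 to 0.999. With wild type arrays 1 and 2 of each week paired by number, in a fit added after seeing the data, 0 of the 9 passed and 315 of all genes did. The difference of Hs3st1 was then -0.32 ± 0.16 (limma adjusted p 0.476), with the 10-week array below the 2-week array in both pairs. The same held for Srgn, Ndst2, Ext2, Glce and Chst11, while Hs6st1 was higher at 10 weeks in both pairs.

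Whether the weeks differed more in one genotype than in the other was tested by the interaction of genotype and week, with all 12 arrays. None of the 9 genes passed, nor did any of the 19938 (0%); at an unadjusted p under 0.05 there were 5 of the 9 and 11.4% of all genes. The interaction was 2.24 ± 0.82 (SE) for Ndst2, 2.17 ± 0.79 for Chst11, 1.42 ± 0.59 for Hs3st1 and 1.11 ± 0.40 for Hs2st1, each with a limma adjusted p of 0.424. Without wild type array 3 at 2 weeks, 6 of the 9 passed and 3138 genes in all, with 3.16 ± 0.15 for Ndst2, whose adjusted p ran from 4.72e-07 to 0.83 over all alternatives. In that fit every ACKR2-/- array at 2 weeks is low in mast cell markers and no other array is.

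Lists of further genes of the pathway held 81 genes, 79 of them measured. In ACKR2-/- against wild type cells at 10 weeks 0 of the 79 passed, with a median difference of -0.04. Sulf2, which removes sulfate from heparan chains outside the cell, read 8.16, 7.24 and 7.22 on the ACKR2-/- arrays, against 9.40, 8.45 and 8.26 on the wild type arrays, and its groups did not overlap (-1.17 ± 0.47, adjusted p 0.582). Arsk, a lysosomal sulfatase, read 9.82, 9.67 and 9.64 on the ACKR2-/- arrays, against 9.10, 8.93 and 9.05 on the wild type arrays, higher on all ACKR2-/- arrays (0.68 ± 0.18, adjusted p 0.48). Chst13, a sulfotransferase of chondroitin, read 9.48, 8.85 and 9.11 on the ACKR2-/- arrays, against 9.72, 9.70 and 9.79 on the wild type arrays, with the ACKR2-/- arrays lower (-0.59 ± 0.21, 0.555). The lists held further genes without overlap, and on the chondroitin branch 1 of 15 was higher and 4 lower, Chst13 included. Over all genes 8.61% separated as higher in ACKR2-/- cells and 5.98% as lower. The other genes with the lowest p of their lists were Cd44 (-1.59 ± 0.46, 0.503), Dse (-1.64 ± 0.59, 0.555), Hpse (-1.58 ± 0.70, 0.624) and Gpc4 (-1.02 ± 0.36, 0.546), all with overlapping arrays. For these 4, and for Sulf2 and Chst13, ACKR2-/- arrays 2 and 3 were the lowest of the 6, the same 2 arrays on which the monocyte and macrophage markers were lowest. Sgsh (0.40 ± 0.14, 0.543), Slc26a2 (0.38 ± 0.19, 0.692), Slc35b3 (0.29 ± 0.27, 0.884), B4galt7 (-0.18 ± 0.17, 0.901) and Xylt1 (-0.43 ± 0.49, 0.931) complete the 2 of lowest p per list.

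Between 10 and 2 weeks on the ACKR2-/- arrays, 22 of the 79 rose (27.8%) and 6 fell (7.59%), beside 10.5% and 6.33% of all genes. The median difference was 0.12 against 0.06 over all genes. For these genes too, the week cannot be told apart from the low mast cell markers of the 2-week arrays. Among the other heparan and heparin enzymes 4 of 16 rose and 2 fell. Hs6st2, a relative of Hs6st1, read 11.51, 11.56 and 11.46 on the ACKR2-/- arrays, against 11.56, 11.16 and 11.30 on the wild type arrays at 10 weeks. At 2 weeks Hs6st2 read 5.30, 5.40 and 5.53 on the ACKR2-/- arrays, against 11.91, 11.66 and 5.49 on the wild type arrays. It rose by 6.10 ± 1.31 (adjusted p 0.0149), and all 4 arrays low in mast cell markers were at 5.53 or less. Ndst3, another N-deacetylase and N-sulfotransferase, rose by 4.31 ± 0.98 (0.0171). Extl3, which adds the initial N-acetylglucosamine of a heparan chain, fell by 1.54 ± 0.37 (0.0203). Hs3st2 fell by 1.25 ± 0.23 (0.0137), opposite to its relative Hs3st1.

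Of the genes that supply activated sulfate and sugars 4 of 12 rose and 0 fell, beside 10.5% and 6.33% of all genes. Papss2, which makes the sulfate donor PAPS, rose by 5.04 ± 1.09 (adjusted p 0.0153), Slc35d1, a carrier of sugar nucleotides into the secretory pathway, by 2.09 ± 0.46 (0.0156). Smaller rises passed for Uxs1 (0.57 ± 0.17) and Ugdh (0.53 ± 0.12), the enzymes that make UDP-xylose and UDP-glucuronic acid. Of the linker list 1 of 7 rose, beside the same 10.5% of all genes: Fam20b, a xylose kinase (1.40 ± 0.41, 0.0431). On the chondroitin branch 5 of 15 rose and 1 fell: Csgalnact2, which starts the chain, rose by 1.69 ± 0.37 and Dse, the dermatan epimerase, fell by 2.02 ± 0.59, while Chsy1 (1.08 ± 0.32) and Dsel (0.82 ± 0.20) also rose. Among lysosomal enzymes that degrade the chains 6 of 12 rose, among them Glb1 (1.84 ± 0.44), Ids (1.72 ± 0.35) and Hexa (1.39 ± 0.27), and 1 fell, Arsb (-2.54 ± 0.45). Of the other core proteins 2 of 17 were higher and 2 lower, beside 10.5% and 6.33% of all genes. Vcan (4.53 ± 1.05) and Gpc6 (0.96 ± 0.27) rose and Sdc3 (-2.87 ± 0.68) and Cd44 (-2.31 ± 0.46) fell. Vcan read 8.58 on ACKR2-/- array 1 at 10 weeks and 12.38 and 12.07 on arrays 2 and 3, so its mean joins unlike arrays. Like the 9 genes, none of these had a call without ACKR2-/- array 2 or 3 at 10 weeks.

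**Figure D4:**
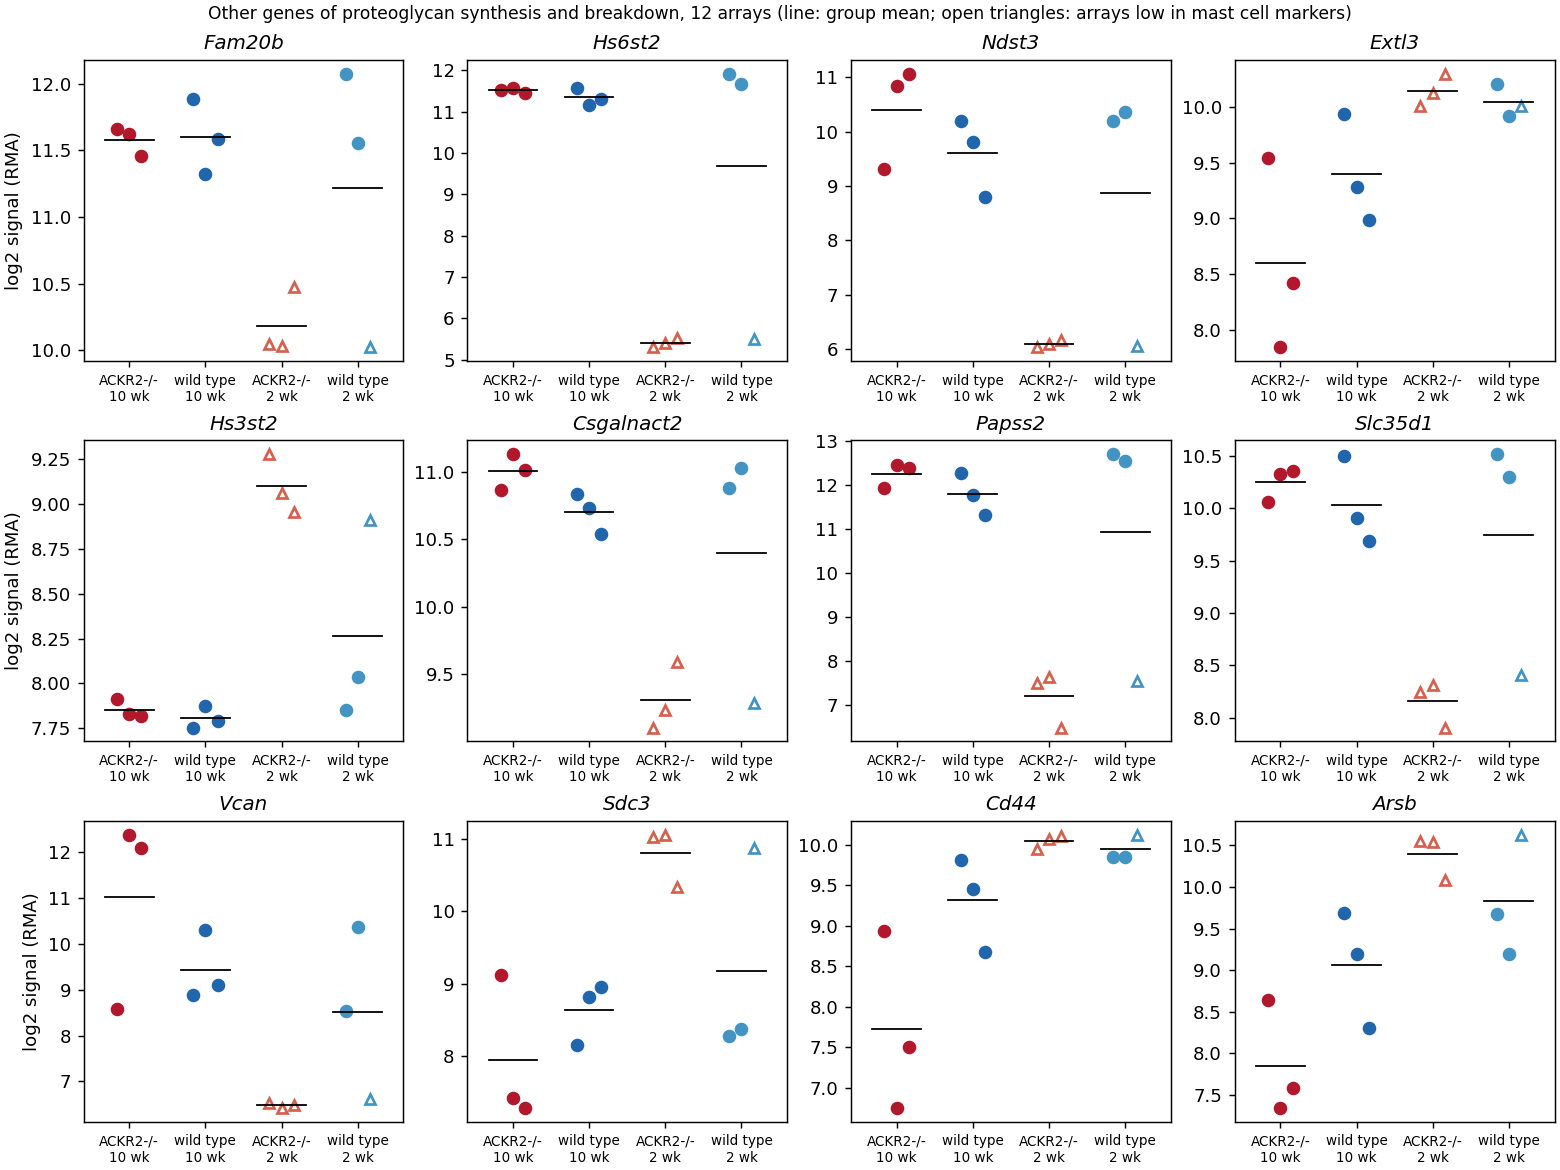
Log2 signal (RMA) of 12 other genes of proteoglycan synthesis and breakdown on each array, in columns for ACKR2-/- at 10 weeks, wild type at 10 weeks, ACKR2-/- at 2 weeks and wild type at 2 weeks, with a line at each group mean and open triangles for the 4 arrays low in mast cell markers. Hs6st2 and Papss2 are lower on all 4 triangles than on the other 8 arrays, and Hs3st2 is higher.

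No list had a call in the other contrasts (limma, 0 of 79 each). At 2 weeks the 2 lowest p-values per list between ACKR2-/- and wild type arrays included those of Slc35d1 (-1.59 ± 0.46), Papss2 (-3.72 ± 1.09), Hs3st2 (0.83 ± 0.23), Hs6st2 (-4.28 ± 1.31), Ids (-1.28 ± 0.35), Hexa (-0.89 ± 0.27), Chst14 (-0.52 ± 0.17) and Csgalnact2 (-1.09 ± 0.37), each at an adjusted p of 0.225. All 8 differences were larger in size without wild type array 3, among them -6.38 for Hs6st2 and -1.64 for Csgalnact2. In the wild type, between 10 and 2 weeks, Slc26a2, a sulfate carrier of the plasma membrane, was lower on every 10-week array (-0.84 ± 0.19, adjusted p 0.668). Cd44 (-0.63) and Arsk (-0.20) were also lower on every 10-week array. Chst14, Hexa, Extl2 and B4galt7 were higher on every 10-week array, by 0.55 ± 0.17, 0.65 ± 0.27, 0.42 ± 0.17 and 0.37 ± 0.17, with adjusted p-values of 0.679 to 0.758. Over all genes 5.29% separated as higher at 10 weeks and 3.45% as lower. Without wild type array 3 at 2 weeks the differences were 0.36 for Chst14, 0.24 for Hexa, 0.21 for Extl2, 0.32 for B4galt7 and -0.81 for Slc26a2. Those of Cd44 and Arsk were then -0.54 and -0.25.

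Genes with the pattern most like Srgn and Ndst2 were ranked by the root mean square difference of gene-centred log2 values over the 12 arrays, among 18241 genes. Closest to Srgn were Rab5b (0.112), Cbr4 (0.119), Bcap31 (0.121), Vti1a (0.126) and Fli1 (0.127). For Ndst2 they were P2rx4 (0.128), Renbp (0.136), Erg (0.160), Map3k6 (0.169) and Arhgap18 (0.177). The likeness of these 5 genes to Ndst2 includes the split between the 4 arrays low in mast cell markers and the other 8.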

How the data were processed

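Mouse gene expression was measured on 12 Affymetrix arrays, 1 per sample, in 4 groups of 3. The authors deposited a table of log2 values of 35399 probe sets, which the submitters' processing notes trace to Partek 6.5 and its RMA method, a background correction, a common distribution and a summary over probes. RMA gives no detection call, and the number of arrays limits the precision. Values ran from 2.66 to 14.91, with array medians of 7.76 to 7.90. The build behind the probe sets is not given in the sources used here. Names came from a platform annotation: 21789 probe sets had 1 symbol, 1621 several and 11989 none here. A gene is its probe set with the highest mean.

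Group means were fitted to all 12 arrays with limma 3.58.1 (R 4.3.3), with 8 residual and 2.39 prior degrees of freedom, and p-values were adjusted by Benjamini-Hochberg over 19938 genes at 0.05. The fit was tested on simulated data that took their spread from the 10-week groups only. That test does not cover the wider spread of the wild type group at 2 weeks. Differences are the ACKR2-/- arrays minus wild type and 10 minus 2 weeks. Errors of differences are limma's standard errors. The members and all lists and tests were chosen with earlier results of these data known. All members are named; of each other list, up to 4 genes past the threshold with the largest difference, or else 2 of the lowest p, and the 5 genes most like Srgn and Ndst2. Alternatives covered the arrays in the fit, scaling, moderation, array weights, a filter on dim genes, the replicate block and leaving out each array.

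Same-numbered arrays correlated in their deviations from the group means at 0.166 to 0.359 between the weeks in wild type, against at most 0.023 for different numbers, so by the rule the numbers pair those arrays. The labels name no shared animal, and these deviations are affected by any array that stands apart from its group. Between genotypes the same-number correlations were -0.308 to -0.180 at 10 weeks and -0.174 to -0.148 at 2 weeks, and between weeks in ACKR2-/- -0.026 to 0.062, so there they share only a number.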

Additional observations from a re-analysis of the deposited data

How the results depend on the processing

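Of 954 differences of the 9 genes under an alternative, 863 kept their direction and their side of the threshold, 33 newly passed, 19 no longer passed and 39 changed sign; the cause was not tested. Leaving out 1 array at a time gave 0 to 8 of the 9 genes changed between 10 and 2 weeks in ACKR2-/- (6 with all arrays), 0 to 5 between the genotypes at 2 weeks (0), 0 to 6 in the interaction (0), and 0 in the other comparisons. Over all genes the first 3 of these comparisons had 0 to 4994, 0 to 4738 and 0 to 3138 calls. With array weights 9 genes changed between the weeks in ACKR2-/-, 8 between the genotypes at 2 weeks and 6 in the interaction, among 9550, 9197 and 4136 of all genes (3358, 0 and 0 without weights). In the added fit on the 10-week arrays without ACKR2-/- array 1, 1 of the 9 passed. The replicate block left 5 calls between the weeks in ACKR2-/-, Ext2 being lost (adjusted p 0.0607), and changed no other call of the 9 genes. In that fit 2897 of all genes passed (14.5%). In wild type arrays 1 and 2 of each week, a fit with the replicate block added after seeing the data passed 0 of the 9 and 315 of all genes.

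Sign changes stood in differences near 0 or resting on wild type array 3 at 2 weeks. ACKR2-/- against wild type at 10 weeks gave -0.041 for Hs6st1 and -0.014 for Chst11 after quantile normalization, -0.056 for Glce and -0.18 for Chst11 with array weights, -0.021 and -0.092 on the 10-week arrays without ACKR2-/- array 1, and -0.044 for Chst11 without wild type array 1. Between 10 and 2 weeks in wild type, the fit without the 4 arrays gave -0.18 for Ndst2, 0.0019 for Glce, -0.091 for Hs2st1 and -0.18 for Hs3st1. Array weights gave -0.11, 0.087, -0.017 and -0.013 for the same genes. The replicate block in wild type arrays 1 and 2 gave -0.15 for Ndst2, -0.03 for Ext2, -0.056 for Hs2st1, -0.32 for Hs3st1 and -0.095 for Chst11. Leaving out single arrays ranged over 0 for Glce (-0.021 to 0.22), Chst11 (-0.092 to 0.19) and Hs6st1 (-0.055 to 0.086) between the genotypes at 10 weeks, and Ext1 at 2 weeks (-0.18 to 0.34). It also did for Ndst2 (-0.18 to 1.20), Glce (-0.26 to 0.0019), Hs2st1 (-0.091 to 0.57), Hs3st1 (-0.18 to 0.61) and Srgn (-0.34 to 0.031) between the weeks in wild type, and for Glce in the interaction (-0.24 to 0.024). No comparison with ACKR2-/- at 2 weeks could be had without the 4 arrays. Signal over background could not be examined.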

Other observations

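A further list of 9 measured genes joined granule proteases with the enzymes that make histamine and serotonin and the granule carrier of these amines. Between 10 and 2 weeks on the ACKR2-/- arrays 6 of 9 rose and 0 fell (limma adjusted p under 0.05), beside 10.5% of all genes higher and 6.33% lower. Without ACKR2-/- array 2 or array 3 at 10 weeks 0 of 9 passed. The largest rises were those of Cpa3, a carboxypeptidase (7.81 ± 1.66), Tph1, the enzyme that limits serotonin synthesis (7.46 ± 1.52), Slc18a2, the amine carrier of the granule (6.59 ± 1.31), and Gzmb, a serine protease (5.67 ± 1.16). The mean of the 9 was 11.42 to 12.12 at 10 weeks and 6.81 to 6.97 at 2 weeks, where all 3 arrays are low in mast cell markers. In ACKR2-/- against wild type cells at 10 weeks 0 of 9 passed. Of the differences 5 lay above 0 and 4 below, with a median of 0.21. Cpa3 and Slc18a2 were higher on every ACKR2-/- array and Mcpt4 lower. These were 2 higher and 1 lower of 9, beside 8.61% and 5.98% of all genes. Mcpt4, a chymase, read 8.66, 7.29 and 7.30 on the ACKR2-/- arrays, against 12.66, 11.21 and 9.05 on the wild type arrays, without overlap (-3.22 ± 1.30, limma adjusted p 0.582). Tpsab1, a tryptase that can share probes with related tryptases, read 10.02, 7.48 and 7.45 on the ACKR2-/- arrays, against 8.89, 9.58 and 9.65 on the wild type arrays (-1.05 ± 0.68, limma adjusted p 0.791), with overlap. For both genes ACKR2-/- arrays 2 and 3 were nearly equal and the lowest of the 6. In the wild type between 10 and 2 weeks, Slc18a2 (2.13 ± 1.31) and Cma1 (1.80 ± 1.11) had the lowest p (adjusted p 0.784 each), with overlapping arrays. Without wild type array 3 at 2 weeks the differences were 0.022 for Slc18a2 and 0.069 for Cma1.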
